A study of Mus musculus with 6 samples.

Results

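The nuclear genes of oxidative phosphorylation were taken from the gene symbols of the count table: 83 of 18482 genes carried the names of subunits of respiratory complexes I to IV and of ATP synthase. They comprised 36 genes of complex I, 4 of complex II, 8 of complex III, 17 of complex IV and 17 of complex V (ATP synthase). The last of the 83 was Ndufa4l2, a paralog of the complex IV subunit Ndufa4 that was kept apart. Their RNA was measured in the ear skin of 21-day-old mice, in 3 lecko and 3 control libraries. Lecko mice carried a deletion of Kdr, the gene of the receptor VEGFR2, induced with tamoxifen in the lymphatic endothelium, and control mice were littermates that also received tamoxifen. The sources used here do not give the driver of the deletion or the tamoxifen schedule of these mice. Whole ear skin was sampled, and in such bulk RNA fewer cells of a type cannot be told apart from less RNA per cell.

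Oxidative phosphorylation takes place in the inner mitochondrial membrane. Complexes I and II pass electrons from NADH and succinate to ubiquinone, complex III passes them on to cytochrome c, and complex IV hands them to oxygen. Complexes I, III and IV pump protons as they do so, and ATP synthase uses the gradient to make ATP. Several small subunits of complex IV have isoform genes that replace the widely expressed form in heart and skeletal muscle, lung or testis. The mouse ear holds thin skeletal muscles beside skin and cartilage, and muscle is rich in mitochondria. The subunits encoded in mitochondrial DNA are not analysed here.

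Total counts ran from 17550952 to 17825135 per lecko library and from 17242921 to 17678754 per control library. The keratinocyte markers Krt14 and Krt10 were abundant in each library, with group means of 3000 and 13400 CPM (normalised counts scaled to 1e+06 per library) in lecko skin and 3250 and 13500 CPM in control skin. Kdr was at 9.76, 11.2 and 10.2 CPM in lecko libraries, against 32.6, 31.3 and 38.5 CPM in control libraries. It fell by 1.72 on the log2 scale (SE 0.10), with a Benjamini-Hochberg adjusted p of 0.00026 over the 14856 genes tested with edgeR's quasi-likelihood fit. Kdr is also among the blood endothelium markers used below, so these bulk values do not show in which endothelium it fell. Y-linked genes summed to 0.224 to 1.19 CPM in the lecko libraries and 1.03 CPM in control 1, but to 242 and 265 CPM in controls 2 and 3. Control 1 was the sole control with Y-linked counts as low as those of the lecko libraries. The Y-linked level thus went partly with group, and the labels do not give sex. A group difference in these data therefore cannot be fully told apart from one that goes with the Y-linked genes. The labels do not say which animal gave each library, so the p-values reflect only how these 6 samples vary.

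Subunit genes of oxidative phosphorylation averaged slightly less in lecko than in control skin, and none passed the test. The 83 genes together held 9032, 8674 and 7802 CPM in lecko libraries 1 to 3, against 9366, 8843 and 9241 CPM in control libraries 1 to 3. The lecko mean was 8503 ± 633 CPM and the control mean 9150 ± 273 CPM (SD, n = 3 each), so lecko skin held 92.9% of the control sum. The ranges overlapped, because lecko 1 lay above control 2, while lecko 3 was the lowest of the 6 libraries.

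All 83 genes passed the filter on low counts. Their fitted log2 fold changes, lecko over control, ran from -0.39 to 0.04 with a median of -0.11, and 80 of the 83 were below 0. Over all 14856 genes tested the median was 0.01, and 48.1% were below 0. With edgeR 0 members were called at an adjusted p of 0.05, where 0.0202% of all genes were called (0.0135% higher and 0.00673% lower), and the smallest adjusted p among members was 0.487. At an unadjusted p under 0.05, 7 members were lower and 0 higher, against 3.68% lower and 4.89% higher, or 8.56% in either direction, over all genes. DESeq2, which called 0.215% of all genes, and limma-voom, which called 0.0202%, also called 0 members. Members without any overlap between groups numbered 13, each lower in lecko skin, where 7.23% of all genes were lower and 7.37% higher in this way.

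Libraries of the lecko group differed from each other more than the groups did. A library's level of each gene was expressed as log2(CPM + 0.5) minus the mean of the 3 controls. The median of this value over the 83 genes was 0.01 in lecko 1, -0.09 in lecko 2 and -0.24 in lecko 3, against 0.03, -0.05 and 0.02 in controls 1, 2 and 3. Lecko 1 thus lay among the controls, while lecko 2 and lecko 3 lay below them. Lecko 3 was below all 3 controls for 79 of the 83 genes, lecko 2 for 52 and lecko 1 for 19. Over all genes tested these shares were 27.3% for lecko 3, 25.1% for lecko 2 and 27.1% for lecko 1. Lecko 1 was above all 3 controls for 16 members, lecko 2 for 3 and lecko 3 for 0, against 26.3%, 26.5% and 29.9% of all genes. Lecko 3 was the lowest of the 6 libraries for 74 members, lecko 2 for 6, control 1 for 1 and control 2 for 2, while lecko 1 and control 3 were the lowest for 0. Over all genes the lowest library was lecko 1 for 16.2%, lecko 2 for 14.5%, lecko 3 for 18.8%, control 1 for 14.9%, control 2 for 13.6% and control 3 for 22.1%. Markers of some other cell types also leaned to 1 side. The median log2 fold change was -0.12 for basal keratinocytes (10 of 10 genes below 0, 0 without overlap). It was -0.25 for blood endothelium (10 of 10 below 0, Kdr among them, 70% lower without overlap, against 7.23% of all genes). It was 0.46 for leukocytes (12 of 12 above 0, 58.3% higher without overlap, against 7.37% of all genes). For erythroid cells it was 0.77 (6 of 6 above 0, 33.3% higher without overlap). Chondrocyte markers were at 0.245 (8 of 8 above 0) and hair shaft markers, low in count, at 0.802 (5 of 5 above 0). Schwann cell markers were at -0.066 (7 of 8 below 0). Those of lymphatic endothelium, where Kdr was deleted, were at -0.112 (5 of 7 below 0). Of the genes of these lists only Kdr was called by edgeR. Medians lay near 0 for suprabasal keratinocytes (0.02, 5 of 10 below 0) and sebocytes (0.02, 4 of 9 below 0). Basal keratinocyte markers summed to 10517, 11049 and 10679 CPM in lecko libraries, against 12188, 10903 and 11884 CPM in control libraries, so lecko 3 was not the lowest for them. The part of these cell types in the members' levels was not tested.

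Without lecko 3 the median log2 fold change of the 83 genes was -0.05, and without lecko 1 it was -0.18. With control 1 as the sole control it was -0.16.

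**Figure D1:**
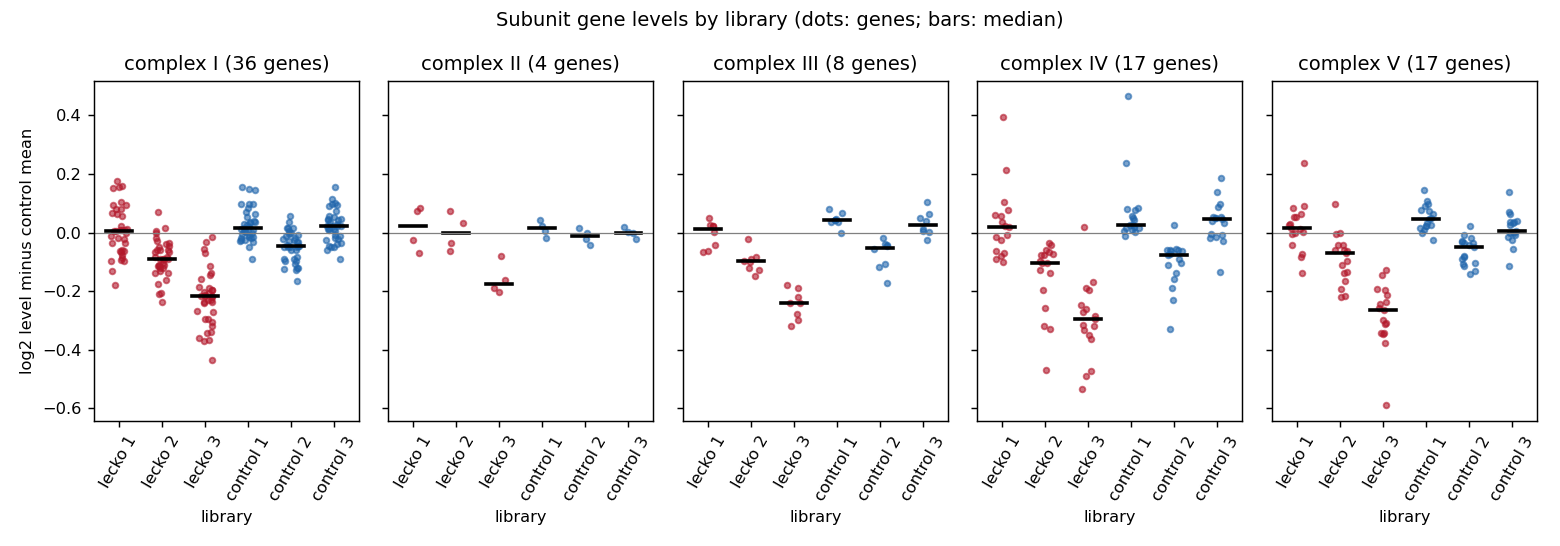
Level of each subunit gene in each library, as log2(CPM + 0.5) minus the mean of the 3 controls on the y axis, with libraries on the x axis, 1 panel per complex, lecko libraries in red and control libraries in blue. Dots are genes and bars are medians: in complex V the medians were 0.01, -0.07 and -0.26 in lecko 1, 2 and 3, and in complex II only lecko 3 stood apart, at -0.17.

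Complex I, the NADH dehydrogenase, had a median log2 fold change of -0.10 over 36 genes, of which 34 were below 0. In complex I 2 genes were lower with unadjusted p below 0.05 (5.56%, near the 3.68% of all genes) and 0 were called. The sum of its genes was 2180, 2101 and 1891 CPM in lecko libraries 1 to 3, against 2238, 2139 and 2244 CPM in control libraries 1 to 3. The 7 core subunits encoded in the nucleus and the 29 accessory subunits both had medians near that value, at -0.10 and -0.11. This division was made after values were seen.

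Ndufa11 (chromosome 17, 56717762 to 56724248, GRCm38.p6), an accessory subunit of the membrane arm, had the smallest p in complex I. It was at 46.6, 41.3 and 41.4 CPM in lecko libraries, against 48.0, 50.1 and 48.4 CPM in control libraries, and the groups did not overlap. Its log2 fold change was -0.18 (SE 0.07, edgeR adjusted p = 0.530). Ndufs7, a core subunit that binds the last iron-sulfur cluster before ubiquinone, was at 34.3, 37.3 and 28.6 CPM in lecko libraries, against 38.7, 37.9 and 39.8 CPM in control libraries. Lecko 2 came within 1 CPM of the controls, and the log2 fold change of Ndufs7 was -0.22 (SE 0.10). At the other end of the complex, the accessory genes Ndufb4 and Ndufb6 had log2 fold changes of 0.00 (SE 0.08 and 0.07). Ndufb4 and its copy Ndufb4c (-0.17) share reads, and their counts were not whole, so the division between them is uncertain. The same holds for other members with counts that were not whole, among them Ndufa13, Ndufb11, Uqcrc2, Cox7a2 and Atp5pb.

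Complex II, succinate dehydrogenase, lay nearest to the controls, with a median log2 fold change of -0.05 over 4 genes and 0 members at an unadjusted p under 0.05. Its sum was 493, 492 and 450 CPM in lecko libraries, against 502, 486 and 494 CPM in control libraries, and lecko 1 and lecko 2 lay inside the control range. Sdha, the flavoprotein that oxidises succinate, was at 230, 228 and 221 CPM in lecko libraries, against 241, 227 and 234 CPM in control libraries. Sdhb, the iron-sulfur subunit, was at 74.9, 67.6 and 61.2 CPM in lecko libraries, against 69.7, 71.5 and 70.7 CPM in control libraries, so that lecko 1 was the highest and lecko 3 the lowest of the 6. The membrane anchors Sdhc and Sdhd had log2 fold changes of -0.07 and -0.01 (SE 0.06 and 0.08). Without lecko 3 the median of the complex was 0.00. Whether complex II differed from the other complexes was not tested.

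Complex III, the cytochrome bc1 complex, had a median log2 fold change of -0.12 over 8 genes, all below 0, with 0 at an unadjusted p under 0.05. The catalytic Rieske protein gene Uqcrfs1 was at 118, 116 and 105 CPM in lecko libraries, against 128, 119 and 125 CPM in control libraries. These groups were apart, though lecko 1 and control 2 differed by about 1 CPM, and the log2 fold change was -0.13 (SE 0.06, edgeR adjusted p = 0.596). The core proteins Uqcrc1 and Uqcrc2 had log2 fold changes of -0.09 and -0.10, and Uqcrh, the acidic hinge protein beside cytochrome c, of -0.12. Uqcrc2 was also without overlap, at 174, 169 and 158 CPM in lecko libraries, against 185, 177 and 176 CPM in control libraries.

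Complex IV, cytochrome c oxidase, had the lowest median of the 5, -0.13 over 17 genes, with 16 below 0. The 17 include the 3 muscle isoforms Cox6a2, Cox7a1 and Cox8b, which were among its lowest genes. Without them the middle genes were Cox4i1 (-0.106) and Cox7a2 (-0.099), above the medians of complexes III (-0.118) and V (-0.112). In this complex 3 genes were lower with unadjusted p below 0.05 (17.6%, against 3.68% of all genes) and 0 were called. They were Cox8a and the muscle isoforms Cox8b and Cox6a2. Its sum was 1663, 1561 and 1380 CPM in lecko libraries, against 1729, 1576 and 1709 CPM in control libraries, and only lecko 2 and lecko 3 lay below each control. Of the widely expressed genes, Cox8a (chromosome 19, 7215158 to 7217616) was at 94.3, 91.8 and 82.9 CPM in lecko libraries, against 102, 97.0 and 105 CPM in control libraries. Every lecko library was below every control for this small membrane subunit, and its log2 fold change was -0.17 (SE 0.06, edgeR adjusted p = 0.530). Cox4i1, the most abundant nuclear subunit by CPM, was at 308, 295 and 261 CPM in lecko libraries, against 328, 297 and 304 CPM in control libraries, with overlap between groups. Cox7a2l, which helps to join complex III to complex IV, had a log2 fold change of -0.10 (SE 0.06), Cox6b1 of -0.13 (SE 0.09), Cox7b of -0.05 (SE 0.09) and Ndufa4 of -0.16 (SE 0.10).

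The heart and skeletal muscle isoforms of complex IV, Cox6a2, Cox7a1 and Cox8b, had log2 fold changes of -0.36 to -0.25, below those of most members, and 0 were called. Cox6a2 (chromosome 7, 128205435 to 128206366) was at 40.4, 33.9 and 30.6 CPM in lecko libraries, against 42.8, 37.4 and 48.7 CPM in control libraries. Lecko 1 lay between controls 2 and 1, and the log2 fold change was -0.30 (SE 0.13, edgeR adjusted p = 0.570). Cox8b (chromosome 7, 140898942 to 140900446) was at 11.9, 8.82 and 8.40 CPM in lecko libraries, against 12.5, 11.5 and 13.3 CPM in control libraries. Here too lecko 1 was within the control range, and the log2 fold change was -0.36 (SE 0.14, adjusted p = 0.552). Cox7a1 was at 9.71, 7.35 and 6.47 CPM in lecko libraries, against 9.23, 9.49 and 9.19 CPM in control libraries. Lecko 1 was the highest of the 6 and lecko 3 the lowest, with a log2 fold change of -0.25 (SE 0.15).

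The share of each isoform among the transcripts of its pair was set per transcript length. Cox6a2 made up 28.7%, 25% and 25.6% of Cox6a1 and Cox6a2 together in lecko libraries, against 27.5%, 26.9% and 31.4% in control libraries. Cox7a1 made up 13.5%, 11.6% and 10.8% of its pair with Cox7a2 in lecko libraries, against 13.0%, 13.9% and 12.7% in control libraries. Cox8b made up 16.1%, 12.8% and 13.4% of its pair with Cox8a in lecko libraries, against 15.8%, 15.3% and 16.2% in control libraries. Every pair overlapped between groups. The log2 ratio of the muscle to the common isoform differed by -0.15 for Cox6a2, -0.17 for Cox7a1 and -0.20 for Cox8b, lecko minus control, each with p = 0.3 by a two-sided exact permutation test and adjusted p = 0.6 over the 8 pairs compared. With 3 libraries against 3 the smallest p of this test is 0.1.

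Skeletal muscle markers were also lower in lecko skin. All 34 markers were tested, none was at 0, 30 had a log2 fold change below 0, and the median of the 34 was -0.30. The 4 above 0 were Tnnc1 (0.244), Myh8 (0.165), Myh7 (0.148) and Tnni1 (0.023). Of the 34 markers, 22 were lower at an unadjusted p under 0.05 (64.7%, against 3.68% of all genes) and 0 were called by edgeR. Their sum was 11179, 10447 and 8757 CPM in lecko libraries, against 12369, 11578 and 13101 CPM in control libraries, without overlap and with lecko 3 again the lowest. Their median deviation was -0.13, -0.23 and -0.50 in lecko 1, 2 and 3, against 0.03, -0.09 and 0.08 in controls 1, 2 and 3. Lecko 1 was below all 3 controls for 20 of the 34 muscle markers and above all 3 for 4. For the 83 members these numbers were 19 and 16. Set against this sum, the log2 ratio of Cox6a2 averaged -8.18 ± 0.08 in lecko and -8.17 ± 0.10 in control libraries (SD, n = 3 each). The same ratio averaged -10.35 ± 0.16 in lecko and -10.37 ± 0.11 in control libraries for Cox7a1, and -10.04 ± 0.17 in lecko and -9.96 ± 0.02 in control libraries for Cox8b. Relative to muscle markers the 3 isoforms thus differed between groups by 0.08 or less on the log2 scale. Without them the median of the remaining 80 members was -0.10. The part of muscle content in the members' levels was not tested. Cox7a1 and Cox8b are also expressed in brown fat, whose defining gene Ucp1 was near 0, at 0.226 ± 0.057 CPM in lecko and 0.230 ± 0.059 CPM in control libraries (SD, n = 3 each). Other genes of the 7-gene brown fat list were detected, among them Cidea at 118 CPM in lecko and 119 CPM in control libraries, Elovl3 at 167 CPM in lecko and 162 CPM in control libraries and Prdm16 at 17.6 CPM in lecko and 16.5 CPM in control libraries. The list summed to 300 to 335 CPM in lecko and 274 to 342 CPM in control libraries, with 4 of its 6 tested genes above 0 in log2 fold change and none at 0 counts throughout. Ppargc1a had the lowest log2 fold change of the 6, -0.30 (SE 0.17), at 6.19 CPM in lecko and 7.64 CPM in control libraries. The part of brown fat was not tested.

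Ndufa4l2 (chromosome 10, 127509274 to 127517154), known for its induction by hypoxia, had the lowest log2 fold change and the smallest p of the 83 genes. It was at 34.8, 25.6 and 29.5 CPM in lecko libraries, against 40.8, 41.5 and 35.7 CPM in control libraries. The groups did not overlap, although lecko 1 and control 3 differed by about 1 CPM, and here lecko 2 was the lowest library. The log2 fold change was -0.39 (SE 0.11), with an unadjusted p of 0.0077, an edgeR adjusted p of 0.487 and a DESeq2 adjusted p of 0.240. Cox4i2, the lung and hypoxia isoform of Cox4i1, was at 5.08, 3.05 and 3.80 CPM in lecko libraries, against 5.36, 2.87 and 3.37 CPM in control libraries. Control 1 and lecko 1 were the highest for it, and its log2 fold change of 0.04 (SE 0.27) became -0.44 with control 1 as the sole control. Markers of smooth muscle and pericytes, in which both genes are also expressed, had a median log2 fold change of -0.23 over 10 genes, 7 below 0 and none at 0. They summed to 748 to 801 CPM in lecko and 824 to 901 CPM in control libraries. The list shares Des with the skeletal muscle list, and without it the sums were 564, 539 and 568 CPM in lecko libraries, against 569, 586 and 608 CPM in control libraries. The pericyte genes Pdgfrb and Cspg4 had log2 fold changes of 0.15 and 0.09, while Rgs5 of the same list had -0.25 (SE 0.07). Rgs5 was at 158, 156 and 151 CPM in lecko libraries, against 186, 167 and 199 CPM in control libraries. Their part in the level of Ndufa4l2 was not tested. Cox6b2, the testis isoform of Cox6b1, was at 18 to 31 counts in lecko and 20 to 31 counts in control libraries, and the testis genes Cox7b2 and Cox8c are not analysed here.

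**Figure D2:**
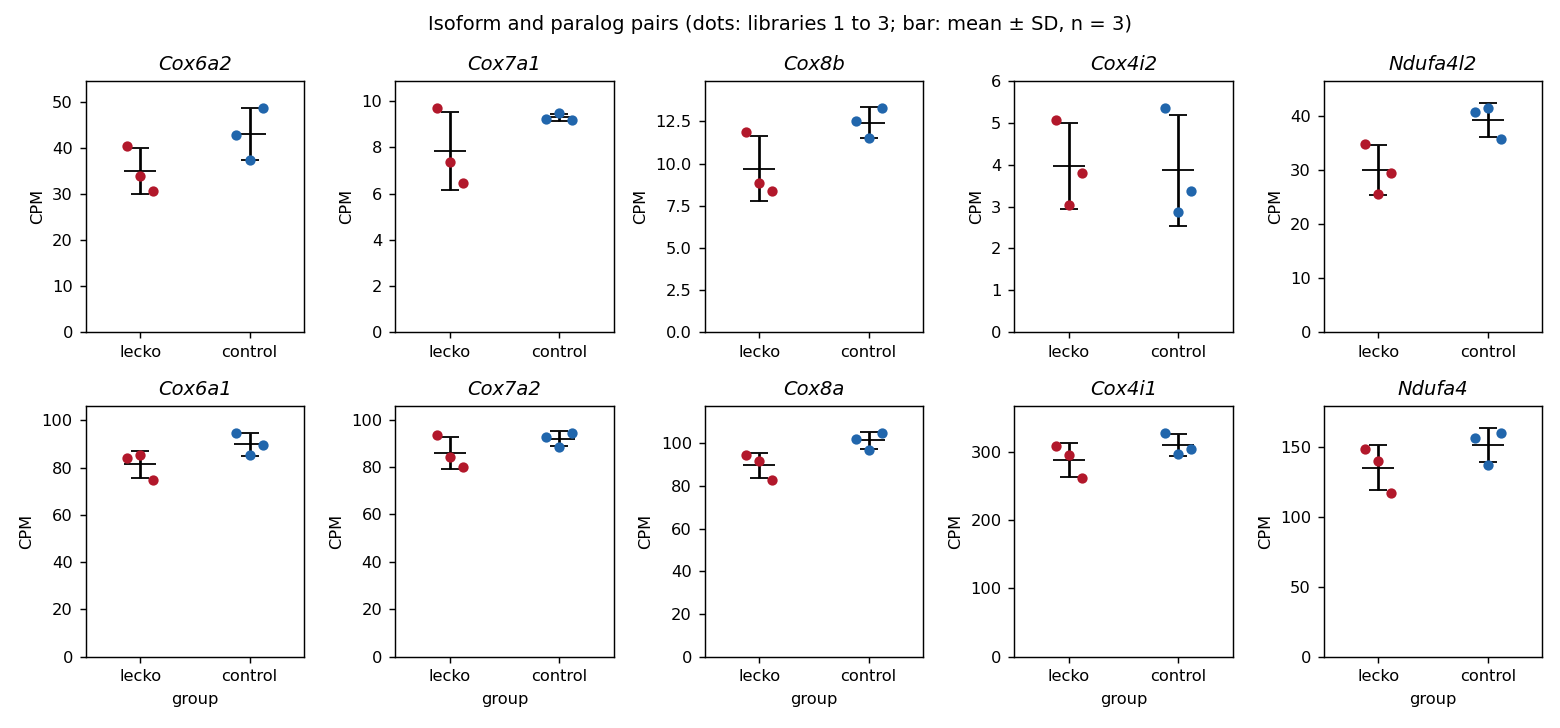
Normalised level in CPM on the y axis, from 0, of tissue isoforms or paralogs in the upper row and of their widely expressed partners in the lower row, by group on the x axis, lecko in red and control in blue. Dots are libraries 1 to 3 from left to right and bars show mean ± SD (n = 3): for Cox6a2, Cox7a1 and Cox8b lecko 1 lies among or above the controls and lecko 3 is the lowest.

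Complex V, ATP synthase, had a median log2 fold change of -0.11 over 17 genes, all below 0. Of the 17, 0 were called and 1 gene was lower with unadjusted p below 0.05 (5.88%, near the 3.68% of all genes). That gene was Atp5d (chromosome 10, 80138698 to 80145828), the delta subunit of the rotating central stalk. It was at 158, 149 and 136 CPM in lecko libraries, against 183, 164 and 174 CPM in control libraries. Each lecko library was below each control, and the log2 fold change was -0.23 (SE 0.07), with an unadjusted p of 0.0083 and an edgeR adjusted p of 0.50. The catalytic beta subunit gene Atp5b, the most abundant member, was at 1005, 991 and 904 CPM in lecko libraries, against 1051, 1021 and 1035 CPM in control libraries. The alpha subunit gene Atp5a1 was at 786, 802 and 724 CPM in lecko libraries, against 841, 821 and 817 CPM in control libraries. Neither gene overlapped between groups, and both had a log2 fold change of -0.10 (SE 0.07 and 0.06). Of the peripheral and membrane parts, Atp5h and Atp5j2 had log2 fold changes of -0.15 (SE 0.08) and -0.19 (SE 0.10), with overlap. Atp5k had a wide spread relative to its level, at 27.9, 21.4 and 15.5 CPM, against 23.2, 21.7 and 26.0 CPM in control libraries.

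The c-ring subunit is made from 3 genes that encode the same mature protein, Atp5g1, Atp5g2 and Atp5g3. Atp5g3 averaged 227 ± 22.8 CPM in lecko and 238 ± 5.31 CPM in control libraries, Atp5g2 93.0 ± 8.75 CPM in lecko and 100 ± 6.44 CPM in control libraries, and Atp5g1 82.2 ± 9.73 CPM in lecko and 89.3 ± 1.49 CPM in control libraries (SD, n = 3 each). The log2 ratio of Atp5g3 to Atp5g1 counts was 1.47 ± 0.05 in lecko and 1.41 ± 0.05 in control libraries (two-sided exact permutation p = 0.3, adjusted p = 0.6). That of Atp5g2 to Atp5g1 was 0.18 ± 0.04 in lecko and 0.16 ± 0.11 in control libraries (two-sided exact permutation p = 1.0). The relative use of the 3 genes thus differed by less than 0.06 on the log2 scale.

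**Figure D3:**
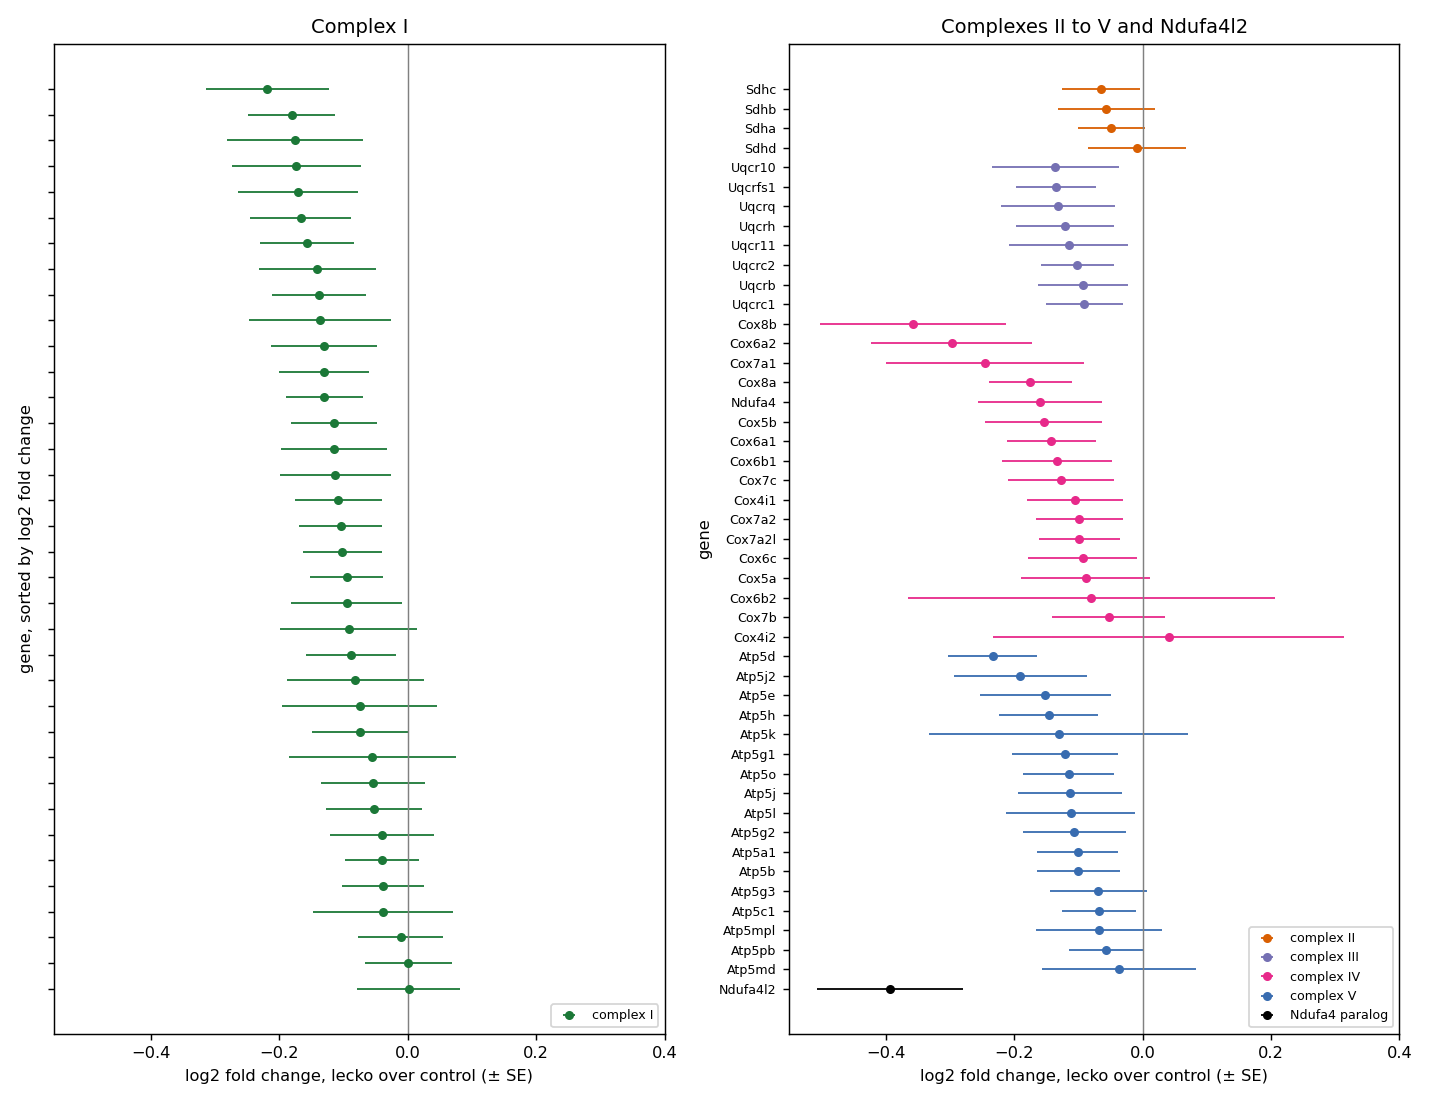
Fitted log2 fold change, lecko over control, on the x axis with its SE as bars, for each of the 83 genes down the y axis, grouped by complex and sorted within it, with gene names for complexes II to V and Ndufa4l2. Points lie between -0.39 (Ndufa4l2) and 0.04 (Cox4i2), and 80 of 83 are below 0.

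Levels per length were set for the 62 members whose annotated coding transcripts differ in length by less than 1.5 times. The median was 199 CPM per kilobase in lecko and 218 CPM per kilobase in control libraries for complex V, 130 in lecko and 138 in control libraries for complex IV, and 110 in lecko and 121 in control libraries for complex III. For complexes II and I it was 63.6 and 57.0 CPM per kilobase in lecko and 64.0 and 59.0 CPM per kilobase in control libraries. Within complex IV the level ran from Cox4i1, at 381 CPM per kilobase in lecko and 410 in control libraries, down to Cox6b2, at 3.16 in lecko and 3.34 in control libraries.

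Promoter windows of 300 bases, from 250 before to 50 after the start, were found in RefSeq's GRCm38.p6 table for 67 of the 83 genes, 72 windows in all. They were searched on both strands for 3 motifs tied to genes of the respiratory chain, NRF1, ETS (CCGGAAG) and YY1, for MEF2, tied to muscle genes, and for the letters TATAAA. The NRF1 motif was in 18 of 72 member windows (25%) and in 8.5% of windows of all genes tested. The ETS motif was in 17 (23.6%, against 15.3%), YY1 in 4 (5.56%, against 1.23%), MEF2 in 1 (1.39%, against 3.14%) and TATAAA in 8 (11.1%, against 7.97%). By complex, NRF1 was in 8 of 33 windows of complex I, 2 of 3 of complex II, 1 of 5 of complex III, 1 of 13 of complex IV and 6 of 18 of complex V. A motif match is a description of letters and not of binding. The windows below contrast the members with the smallest p in complexes I and IV with a muscle isoform: Ndufa11 (chr17:56717512-56717811, plus strand), Cox6a1 (chr5:115348909-115349208, minus strand), the partner of Cox6a2, Cox8a (chr19:7217567-7217866, minus strand) and its muscle counterpart Cox8b (chr7:140900397-140900696, minus strand). Each runs 5′ to 3′ along the gene, with motif matches in capitals.
Ndufa11: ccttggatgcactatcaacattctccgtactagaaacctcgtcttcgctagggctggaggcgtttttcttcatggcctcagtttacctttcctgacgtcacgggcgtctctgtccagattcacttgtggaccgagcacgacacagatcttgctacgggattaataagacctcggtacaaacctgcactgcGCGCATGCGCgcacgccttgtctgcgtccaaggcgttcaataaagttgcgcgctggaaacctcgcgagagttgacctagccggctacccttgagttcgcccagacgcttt
Cox6a1: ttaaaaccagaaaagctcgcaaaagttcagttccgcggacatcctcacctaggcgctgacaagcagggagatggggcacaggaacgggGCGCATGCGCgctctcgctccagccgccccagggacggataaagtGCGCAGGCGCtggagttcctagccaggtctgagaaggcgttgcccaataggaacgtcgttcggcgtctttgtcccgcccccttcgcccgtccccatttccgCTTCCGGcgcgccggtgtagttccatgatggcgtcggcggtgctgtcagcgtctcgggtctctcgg
Cox8a: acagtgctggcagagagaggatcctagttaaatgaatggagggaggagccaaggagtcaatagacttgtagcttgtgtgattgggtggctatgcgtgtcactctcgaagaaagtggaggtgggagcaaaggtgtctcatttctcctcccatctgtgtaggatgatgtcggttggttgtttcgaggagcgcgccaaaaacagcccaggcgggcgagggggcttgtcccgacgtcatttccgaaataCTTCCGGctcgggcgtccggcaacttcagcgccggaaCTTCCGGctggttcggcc
Cox8b: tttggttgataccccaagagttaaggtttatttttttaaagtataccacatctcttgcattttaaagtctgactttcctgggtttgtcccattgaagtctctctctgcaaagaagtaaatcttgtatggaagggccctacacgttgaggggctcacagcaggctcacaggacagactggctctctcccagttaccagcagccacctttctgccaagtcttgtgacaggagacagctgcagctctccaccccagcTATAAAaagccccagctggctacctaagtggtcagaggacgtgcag
Ndufa11 held the NRF1 motif, Cox6a1 the NRF1 and ETS motifs and Cox8a the ETS motif. Cox8b held the letters TATAAA just after its annotated start and no match to the rest. A window with TATAAA as its sole match was not particular to muscle isoforms. Among windows not printed, that of the muscle isoform Cox7a1 held no match. That of the complex I gene Ndufa3 held TATAAA alone, but well before its annotated start. No window was found for the muscle isoform Cox6a2.

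Other genes of mitochondrial energy metabolism stood near the subunit genes, and 0 were called by edgeR, against 0.0202% of all genes. The pyruvate dehydrogenase and citric acid cycle list had a median log2 fold change of -0.07 over 17 genes, all below 0, with 3 lower at an unadjusted p under 0.05 (17.6%, against 3.68% of all genes). In this list Mdh2, malate dehydrogenase, was at 211, 201 and 174 CPM in lecko libraries, against 229, 225 and 223 CPM in control libraries. Every lecko library was below every control for it. Fatty acid oxidation genes had a median of -0.13 over 14 genes, all below 0, with 3 lower at an unadjusted p under 0.05 (21.4%), among them Acadvl (-0.21, SE 0.06) and Cpt1b (-0.45, SE 0.18), the muscle form of the carnitine enzyme. Carriers and energy transfer genes had a median of -0.09 over 11 genes, all below 0 and 1 lower at an unadjusted p under 0.05 (9.09%). Their ADP/ATP carrier Slc25a4 was at -0.25 (SE 0.10) and the muscle mitochondrial creatine kinase Ckmt2 at -0.31 (SE 0.14), both abundant in muscle.

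Of 78 genes for mitochondrial ribosomal proteins the median log2 fold change was -0.08, with 65 below 0. Of these 78 genes 4 were lower at an unadjusted p under 0.05 (5.13%, against 3.68% of all genes) and 17 lower without overlap (21.8%, against 7.23% of all genes), among them Mrps34 (-0.24, SE 0.07) and Mrpl43 (-0.17, SE 0.07). Assembly factors of the complexes lay nearer to 0, with a median of -0.05 over 46 genes, 27 of them below 0 and 2 lower at an unadjusted p under 0.05, which at 4.35% is near the 3.68% of all genes. The 2 genes were Cox14 (-0.31, SE 0.10) and Sdhaf1 (-0.23, SE 0.09), which act on complexes IV and II. Cytochrome c (Cycs) and the complex III subunit Cyc1, which the name pattern misses, were at -0.11 and -0.10 (SE 0.07 each), and Ndufab1 was the remaining gene of that list. Biogenesis regulators had a median of -0.04 over 18 genes, 12 below 0, with 2 higher at an unadjusted p under 0.05 (11.1%, against 4.89% of all genes). They were Tfb1m, a methyltransferase of mitochondrial ribosomal RNA (0.38, SE 0.15), and Gabpa, an ETS factor that acts on respiratory chain genes (0.16, SE 0.06). Gabpa was at 74.1, 77.7 and 84.0 CPM in lecko libraries, against 67.6, 70.6 and 72.2 CPM in control libraries. By library, the citric acid cycle median was -0.05, -0.04 and -0.16 in lecko 1, 2 and 3 and the mitochondrial ribosomal one -0.05, -0.03 and -0.15, so lecko 3 was the lowest in both. The regulators showed another order, at -0.09, -0.06 and -0.03 in lecko 1, 2 and 3.

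**Figure D4:**
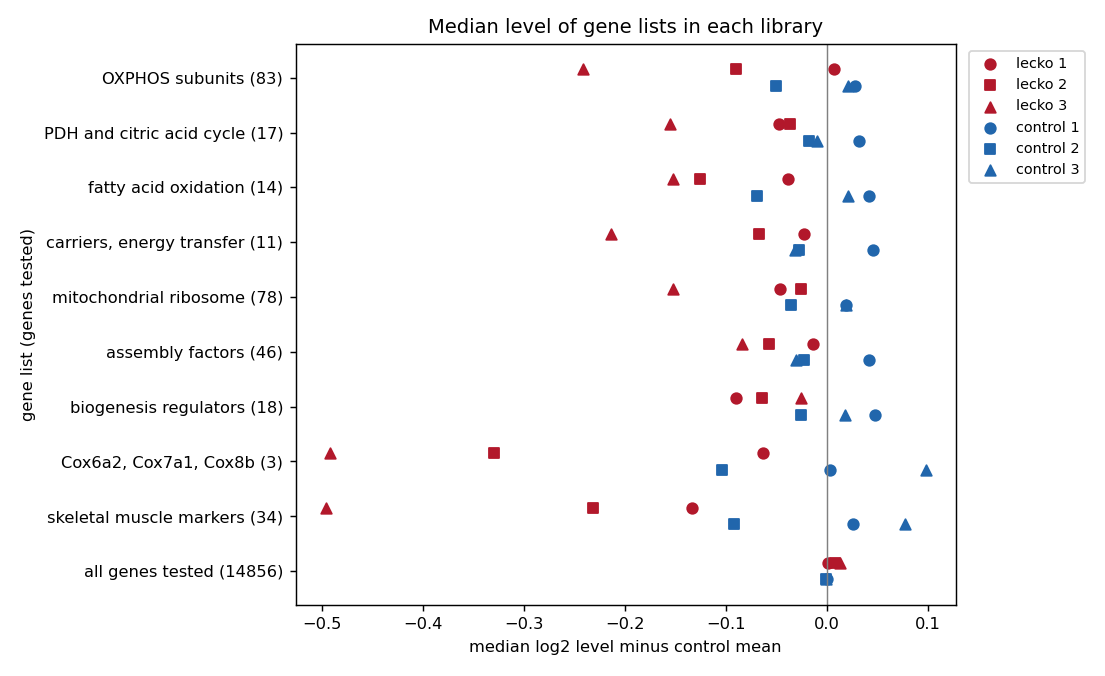
Median over each gene list of log2(CPM + 0.5) minus the mean of the 3 controls on the x axis, with lists down the y axis (genes tested in brackets) and 1 symbol per library, lecko in red and control in blue. Lecko 3 lies at -0.24 for the 83 subunit genes and at -0.50 for skeletal muscle markers, and the median over all genes is within 0.02 of 0 in every library.

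Short transcripts as a class also sat lower in lecko 3. Of the 83 members, 70 were among the 2935 genes with the shortest transcripts (165 to 1540 bases). The median member had 730 bases, against 2699 over all genes tested. These 2935 genes had median deviations of 0.00, -0.03 and -0.08 in lecko 1, 2 and 3, against 0.02, -0.03 and 0.01 in controls 1, 2 and 3, and the 2935 genes with the longest transcripts were at 0.07 in lecko 3. The members' medians of -0.09 in lecko 2 and -0.24 in lecko 3 lay below those of the short genes. With a length trend removed from each library, the median log2 fold change of the 83 genes was -0.06, with 71 below 0 and 0 called. Short transcripts and muscle markers, like the members, were lowest in lecko 3. The part of transcript length in the result was not tested beyond this fit.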

How the data were processed

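Polyadenylated RNA of ear skin was sequenced, and the authors deposited 1 table of estimated counts per gene. Sample titles gave the groups (3 lecko and 3 control libraries). Per the submitters' processing notes, HISAT2 2.2.1, Bowtie2 2.4.5, RSEM 1.3.1 and GRCm38.p6 were used, while their order, the annotation and the strand setting are not stated there. The unit was read from the deposited values, since 9.6 to 10.5% of each library's counts are fractional. Estimation splits reads between similar genes, so near-identical copies are uncertain.

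Counts were rounded, filtered with filterByExpr (minimum count 10, minimum total 15; 14856 genes kept), scaled by TMM and tested with edgeR 4.0.16 (R 4.3.3; robust quasi-likelihood with only group in the model). Genes were called at a Benjamini-Hochberg adjusted p below 0.05. CPM values use the TMM library sizes. At these depths the members had 18 to 18228 counts per library. Median lengths of coding transcripts came from GENCODE M21 (GRCm38), for 97.4% of genes. The script was tested on simulated data.

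The members, gene lists, marker lists and tests were chosen with earlier results of these data known. Named genes were the isoform pairs, Cox7a2l, the 3 genes with the smallest p and the gene of highest CPM in each complex, and the 2 genes with the smallest p of each pathway list; some genes that this rule names are not reported here. Others, including Ndufb4, Ndufb6, Sdhd, Atp5a1 and Atp5k, were chosen after their values were seen. Alternatives were DESeq2 1.42.0, limma-voom (limma 3.58.1), other scalings and filters, a replicate block, a Y-linked term and leaving out each library. The fits with control 1 alone and with a length trend removed were added after seeing the data. Replicates of 1 group were distinct libraries: chi-square per degree of freedom between them was 8.43 to 17.45.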

Additional observations from a re-analysis of the deposited data

How the results depend on the processing

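The median log2 fold change of the 83 members stayed below 0 in each setting tried, at -0.16 to -0.06 over the scalings, filters, tests and added terms and at -0.18 to -0.05 with each library left out, the value nearest 0 being that without lecko 3. Leaving out single libraries moved the medians of complexes I, II, III, IV and V over -0.18 to -0.03, -0.07 to 0.00, -0.18 to -0.05, -0.20 to -0.05 and -0.19 to -0.04. No setting called a member. Over all genes edgeR called 2 higher and 1 lower, DESeq2 24 higher and 8 lower, and the length trend 1 higher; single libraries left out gave 2 to 36 higher and 1 to 5 lower. The log2 fold change of Cox4i2 was -0.43 with a Y-linked term and -0.44 with control 1 alone, and -0.18 to 0.34 with single libraries left out. The same ranges were -0.14 to 0.012 for Sdhb, -0.13 to 0.012 for Atp5g3, -0.30 to 0.094 for Cox6b2 and -0.13 to 0.019 for Cox7b. For isoform log2 ratios they were -0.081 to 0.20 for Cox6b2 over Cox6b1 and -0.047 to 0.055 for Atp5g2 over Atp5g1. Of 31 members followed singly, leaving out lecko 3 brought 22 over 1.5 times nearer to 0 or past it, and leaving out lecko 1 took 13 over 1.5 times farther from 0. Ranges were -0.44 to -0.12 for Cox7a1, -0.30 to -0.12 for Ndufs7, -0.21 to -0.05 for Uqcrh, -0.23 to -0.04 for Cox6b1 and -0.24 to -0.07 for Ndufa4. The cause of these moves was not tested. Deviations of same-numbered libraries correlated at 0.337, -0.072 and 0.035 for numbers 1, 2 and 3, against -0.285 to 0.234 between libraries of unlike number. With 3 libraries per group these values cannot decide whether the numbers pair the samples. With a replicate block the median was -0.11 and 0 members were called. Depth limits Cox6b2, Cox4i2 and Cox7a1, with 18 to 31, 50 to 93 and 114 to 172 counts per library, and intervals of any kind here cover these 6 libraries only.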
